A study of Mus musculus with 8 samples.

Results

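687g and pB3 are cell lines from mouse mammary tumours of the C57BL/6 strain. Both express vimentin at a high level, and only pB3 also keeps E-cadherin and Epcam. They were set against each other because their vimentin, Cdh1 and Epcam levels were already known to follow this pattern, so those 3 genes are described here and not tested. The comparison uses 4 of the 8 libraries of the series, 2 of 687g and 2 of pB3, and the other 4 libraries, from the lines pB2 and Epcam hi, serve as a reference of low vimentin and share the estimate of the spread. pB3 and pB2 come from tumours of MMTV-PyMT mice, in which a mammary tumour virus promoter drives the polyoma middle T oncogene in the mammary epithelium. 687g and Epcam hi come from tumours of MMTV-PyMT-Snail-IRES-YFP reporter mice, which carry the same oncogene and a yellow fluorescent protein. All 4 lines grew as adherent monolayers, in 5% adult bovine serum and DMEM/F12, and the labels name no treatment. Each mouse model gave 1 of the lines compared, so the effect of the line and that of the mouse model cannot be told apart. The labels do not say whether the replicates are separate cultures, and p-values therefore measure only the spread between these samples.

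In an epithelial-mesenchymal transition, epithelial cells lose the junctions that bind them to their neighbours and take up the cytoskeleton, matrix and motility of mesenchymal cells. Transcription factors of the Snail, Zeb and Twist families repress epithelial genes such as the one for E-cadherin, and the factors Grhl2 and Ovol2, the splicing regulators Esrp1 and Esrp2 and the miR-200 microRNAs hold the epithelial state in place. Carcinoma cells often stop part of the way, with mesenchymal genes on and epithelial genes still present, a state called partial or hybrid.

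Total counts were 15631003 and 15916987 in the pB3 libraries and 19149916 and 16094250 in the 687g libraries, and 12442730 to 19149916 over the series. On the log2(CPM + 1) scale the 2 replicates of pB3 had a correlation over genes of 0.997 and those of 687g one of 0.989. The 687g libraries were further apart from each other: 1.20% of genes differed more than 2-fold between them, against 0.120% between the pB3 libraries. Mitochondrial genes took 0.737% and 0.578% of the counts in pB3 and 1.04% and 1.90% in 687g. CPM are counts scaled to a common library size, with TMM factors, and log2 fold changes are 687g minus pB3 with the standard error of the fit after ±, from 2 libraries per line. Of 15890 genes tested with edgeR's quasi-likelihood test, 2039 were higher and 2054 lower in 687g at an adjusted p under 0.05. That is 25.8% of all genes called, 12.8% higher and 12.9% lower. Without pB3 replicate 1 the counts were 1151 higher and 1323 lower, and without pB3 replicate 2 they were 1136 and 1266. Genes are called alike below where the 95% interval of the log2 fold change lies wholly between -1 and 1, which held for 6818 genes or 42.9%.

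The genes that chose the pair came first. Vim, the mesenchymal filament protein vimentin, stood at 2309.9 and 2432 CPM in the pB3 libraries and at 3388 and 2335 CPM in the 687g libraries, and the ranges overlap. Cdh1, which encodes E-cadherin, had 51.8 and 51.0 CPM in pB3 and 1.90 and 0.739 in 687g. Epcam, an adhesion protein of epithelia, had 278 and 264 CPM in pB3 and 3.85 and 3.70 in 687g. For both epithelial genes every pB3 library was far above every 687g library. In RNA of a whole culture, fewer cells that express a gene and less RNA in each cell cannot be told apart. pB3 itself stood below the lines of low vimentin, which had 155 ± 16.5 (pB2) and 488 ± 43.9 CPM (Epcam hi) of Cdh1 (SD, n = 2). In the plot of panel genes pB3 thus has Vim as high as 687g and Cdh1 and Epcam at an intermediate level.

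**Figure D1:**
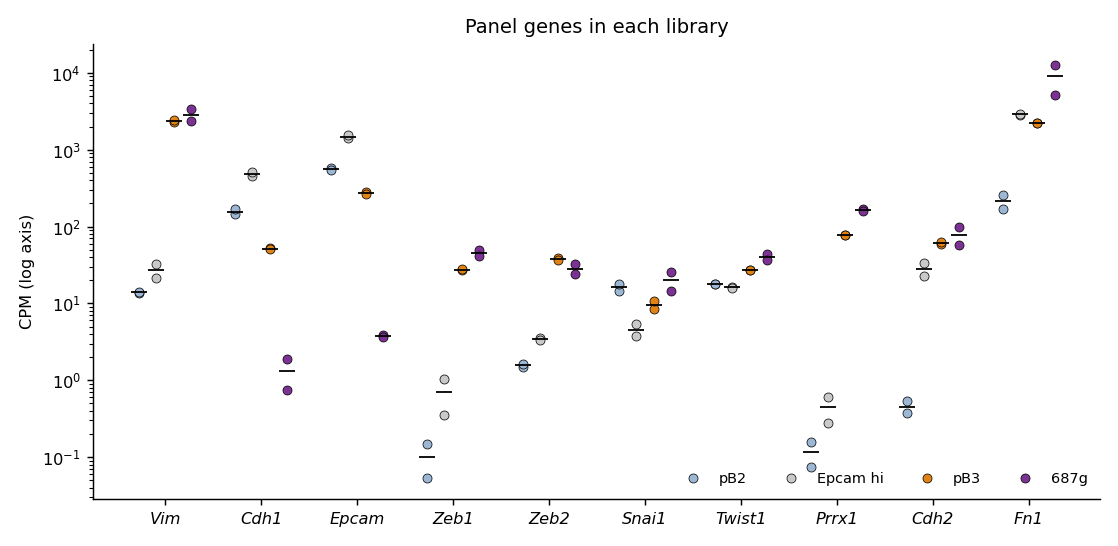
CPM on a log axis for 10 genes in each library of the 4 lines; points are single libraries (2 per line) and black dashes are the mean of a line. Vim, Zeb1, Zeb2 and Prrx1 are high in both pB3 and 687g and low in pB2 and Epcam hi, while Cdh1 and Epcam are lowest in 687g.

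Regulators of the transition were present in both lines. All 16 EMT transcription factors on the list were tested, and 8 were higher in 687g, 0 were lower and 8 were not called, with a median log2 fold change of 0.66 against -0.004 over all genes. Without pB3 replicate 1, 4 were called higher, and without pB3 replicate 2 or 687g replicate 1 there were 6 and 5. Zeb1, a repressor of Cdh1, had 27.1 and 28.0 CPM in pB3 and 49.6 and 41.5 in 687g. The groups do not overlap, and the log2 fold change was 0.73 ± 0.24 (edgeR adjusted p = 0.0415). The call was lost without any 1 of the 4 libraries (adjusted p = 0.223 and 0.193 without pB3 replicates 1 and 2, 0.178 and 0.0556 without 687g replicates 1 and 2). Its partner Zeb2 had 39.5 and 36.3 CPM in pB3 and 32.5 and 24.3 in 687g, with an interval of -0.85 to 0.03 that makes the lines alike. Hmga2, a chromatin protein of embryonic and invasive cells, was alike as well, at 489.8 and 488 CPM in pB3 and 608 and 519.6 in 687g.

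Snai1, which encodes Snail, had 8.40 and 10.8 CPM in pB3 and 25.8 and 14.7 in 687g, a log2 fold change of 1.08 ± 0.29 (edgeR adjusted p = 0.0126). It did not follow vimentin over the 4 lines, since pB2 had 16.3 ± 2.27 CPM and Epcam hi 4.53 ± 1.15 (SD, n = 2). The 687g values are both above the pB3 values, and the call was lost without pB3 replicate 1 (adjusted p = 0.118) and without 687g replicate 1 (0.152). Snai2, the related factor Slug, was low in both lines, at 2.55 and 2.72 CPM in pB3 and 0.837 and 1.41 in 687g, and was not called (-1.24 ± 0.46, edgeR adjusted p = 0.0630). It was called lower with the libraries of this pair alone (edgeR adjusted p = 0.033) and by limma-voom (0.0383). Twist1, a basic helix-loop-helix factor, had 27.1 and 27.3 CPM in pB3 and 44.3 and 36.9 in 687g (0.58 ± 0.18, edgeR adjusted p = 0.0317). That call did not hold without pB3 replicate 1 or 2 (adjusted p = 0.250 and 0.243) or 687g replicate 1 (0.123). With total counts in place of TMM the adjusted p was 0.0586 for Zeb1 and 0.052 for Twist1, and with no filter on low counts it was 0.0793 for Twist1. Zeb1, Snai1 and Twist1 thus differed by little more than 1 log2 unit at most.

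Another 4 factors of the list were called higher in 687g whichever library was left out. Prrx1, a homeobox factor of mesenchyme, had 77.5 and 77.9 CPM in pB3 and 167 and 158 in 687g, a log2 fold change of 1.06 ± 0.19 (edgeR adjusted p = 7.25e-04). It was near 0 in the lines of low vimentin, at 0.117 ± 0.0601 CPM in pB2 and 0.442 ± 0.227 in Epcam hi (SD, n = 2). Tcf4, a basic helix-loop-helix factor that binds E-boxes, had 72.7 and 70.5 CPM in pB3 and 232 and 154 in 687g (1.43 ± 0.23, edgeR adjusted p = 3.22e-04). Foxf2, a forkhead factor of mesenchyme, had 4.37 and 3.82 CPM in pB3 and 21.5 and 14.1 in 687g (2.12 ± 0.31, edgeR adjusted p = 2.03e-04). The widest difference was that of Foxq1, a forkhead factor, from 0.941 and 0.518 CPM in pB3 to 17.9 and 8.73 in 687g (4.18 ± 0.49, edgeR adjusted p = 2.15e-05). It was 3.58 without 687g replicate 1. For all 4 genes the groups do not overlap.

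Factors that hold the epithelial state were lower in 687g or not called, with 1 exception. Of 15 such gatekeepers, all tested, 7 were lower in 687g, 1 was higher and 7 were not called, with a median log2 fold change of -3.51. Of these 15, 7 were under 1 CPM in all 4 libraries, among them Ovol2 and Elf3 of those called and Grhl3, which had 0 counts, so the median rests partly on genes near the floor. Esrp1, which splices epithelial isoforms, lies on chromosome 4 from 11331933 to 11386783 (GRCm38). It had 12.8 and 11.6 CPM in the pB3 libraries and 0.335 and 0.134 in the 687g libraries, a log2 fold change of -5.61 ± 0.34 (edgeR adjusted p = 4.67e-08, -6.42 without 687g replicate 1). pB2 and Epcam hi had 118 ± 9.70 and 108 ± 15.9 CPM (SD, n = 2), so pB3 kept an intermediate level. Its paralog Esrp2 followed, with 2.96 and 2.01 CPM in pB3 and 0.167 and 0.134 in 687g (-3.96 ± 0.47, edgeR adjusted p = 2.66e-05).

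Grhl2, a Grainyhead factor that activates Cdh1, had 3.36 and 2.72 CPM in pB3 and 0.0558 and 0.202 in 687g (-4.55 ± 0.47, edgeR adjusted p = 6.72e-06). It was -3.85 and -5.58 without 687g replicates 1 and 2. Ovol2 and Elf3 were below 1 CPM already in pB3 and had 0 counts in 687g. They were at least 5.41-fold and 6.14-fold lower, taking 3 counts for the whole line as the floor, which is 0.0915 CPM in 687g and 0.0990 CPM in pB3. Rbm47, an RNA-binding protein of epithelia, kept a substantial level in 687g, with 36.9 and 39.7 CPM in pB3 and 20.9 and 15.5 in 687g (-1.07 ± 0.21, edgeR adjusted p = 0.00183). Klf5 and Tfap2a, transcription factors of epithelial lineages, were alike in the lines. Klf5 had 40.1 and 38.7 CPM in pB3 and 42.7 and 33.7 in 687g, with an interval of -0.44 to 0.36. Tfap2a had 28.0 and 28.1 CPM in pB3 and 41.4 and 27.5 in 687g, with an interval of -0.23 to 0.82. The gatekeeper called higher was Grhl1, by 35.1-fold (counting interval 5.93 to 1423) from 1 count in pB3. It was low in both lines, with 1.28 and 1.01 CPM in 687g, and its fitted log2 fold change of 4.83 moved to 4.0 and 7.23 without pB3 replicates 1 and 2.

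The miR-200 family targets Zeb1 and Zeb2, and its members are shown because transcripts that span them were counted in these libraries. Members share their seed (bases 2 to 8, in capitals), which is AAUACUG in miR-200b, miR-200c and miR-429 and AACACUG in miR-200a and miR-141. The mature sequences are those of RefSeq (GRCm38.p6), 5′ to 3′.
miR-200b-3p: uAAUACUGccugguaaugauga
miR-200c-3p: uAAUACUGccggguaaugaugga
miR-429-3p: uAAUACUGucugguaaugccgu
miR-200a-3p: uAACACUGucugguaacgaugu
miR-141-3p: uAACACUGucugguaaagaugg
Poly(A)-selected libraries do not measure mature microRNAs, so only the longer transcripts that span them were read, a choice made after their values were seen. Gm13648 spans miR-200b, miR-200a and miR-429 on chromosome 4 from 156052715 to 156059802. It had 1 and 2 counts in the pB3 libraries and 0 and 0 in the 687g libraries, against 8 and 16 in pB2 and 22 and 84 in Epcam hi. Gm29008 overlaps miR-141 on chromosome 6 from 124717647 to 124717944 and had 1 and 1 counts in pB3, 0 and 0 in 687g, 10 and 7 in pB2 and 10 and 13 in Epcam hi. Both transcripts were thus at or near 0 in pB3 as well as in 687g, and a difference between these lines was not detectable at this depth. Gm15884, which spans miR-200c and miR-141 on the same strand from 124715573 to 124718831, had 63 and 71 counts in pB3 and 49 and 48 in 687g.

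Genes of cell junctions and of epithelial traffic were mostly lower in 687g. Over the gatekeepers and the 5 epithelial lists without Cdh1 and Epcam, 45 of 81 genes tested were lower in 687g, 8 were higher and 28 were not called, with a median of -1.80. Over all genes 12.9% were lower and 12.8% higher. In the list of adherens junction and epithelial adhesion genes, 13 genes were tested besides Cdh1 and Epcam, of which 7 were lower, 1 was higher and 4 were alike, with a median of -1.12. St14, the membrane protease matriptase, had 26.4 and 25.8 CPM in pB3 and 0.335 and 0.605 in 687g (-5.80 ± 0.28, edgeR adjusted p = 6.37e-09). Its inhibitor Spint1 had 12.8 and 12.0 CPM in pB3 and 0.167 and 0.134 in 687g (-6.28 ± 0.33, edgeR adjusted p = 1.29e-08). The second inhibitor of that protease, Spint2, was reduced less, from 156 and 161 CPM in pB3 to 17.7 and 26.1 in 687g (-2.86 ± 0.21, edgeR adjusted p = 2.49e-07). In each of these genes both pB3 libraries were above both 687g libraries.

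The catenins, which tie cadherins to actin, did not follow the cadherin. Ctnna1, alpha-catenin, had 313 and 303 CPM in pB3 and 394 and 200.4 in 687g, with an interval of -0.60 to 0.50. Ctnnd1 (p120 catenin), Jup (plakoglobin) and Afdn (afadin) were alike as well, at -0.11, 0.25 and -0.39. Ctnnb1, beta-catenin, had 499.8 and 551 CPM in pB3 and 1066 and 786 in 687g and was the 1 member called higher (0.82 ± 0.19, edgeR adjusted p = 0.00553). That call was lost without pB3 replicate 1 (adjusted p = 0.0904), and without 687g replicate 2 there were 3 members called higher. The neural cadherin gene Cdh2, often called N-cadherin, was alike, with 60.1 and 62.9 CPM in pB3 and 97.5 and 57.8 in 687g. 687g thus had alpha-catenin, p120 catenin and N-cadherin messages near the level of pB3.

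Claudins and occludin, membrane proteins of tight junctions, were low in 687g. Of 20 members 19 were tested, and 13 were lower in 687g, 0 were higher and 3 were alike, with a median of -3.0. Cldn7, a claudin of the paracellular seal, had 49.5 and 49.3 CPM in pB3 and 0.558 and 0.672 in 687g (-6.32 ± 0.25, edgeR adjusted p = 1.92e-09). Cldn4 had 122 and 126 CPM in pB3 and 2.29 and 1.07 in 687g (-6.17 ± 0.34, edgeR adjusted p = 1.87e-08, -6.83 without 687g replicate 1). Cldn3 had 38.9 and 46.1 CPM in pB3 and 0.893 and 0.941 in 687g (-5.52 ± 0.25, edgeR adjusted p = 4.32e-09). All of these claudins were below 3 CPM in every 687g library. Ocln, occludin, had 16.5 and 17.8 CPM in pB3 and 0.558 and 0.269 in 687g (-5.31 ± 0.29, edgeR adjusted p = 1.86e-08, -5.95 without 687g replicate 1). Crb3, a polarity protein of the apical membrane on chromosome 17 from 57059105 to 57065918, had 5.11 and 6.80 CPM in pB3 and 0 counts in 687g, at least 65.1-fold lower by the same floor. Cgn (cingulin) had 1 count in 687g, in replicate 1, and was lower by 207-fold (counting interval 36.6 to 8205). Its fitted log2 fold change of -7.37 was -9.64 and -6.63 without 687g replicates 1 and 2.

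Some other tight junction genes, of the membrane, the scaffold and polarity, were alike, not called or less reduced. Tjp1, the scaffold ZO-1, had 116 and 109 CPM in pB3 and 88.4 and 51.9 in 687g and was not called (-0.68 ± 0.25, edgeR adjusted p = 0.0649). Pard3, of the Par polarity complex, had 47.8 and 48.0 CPM in pB3 and 61.4 and 33.1 in 687g, an interval of -0.55 to 0.52. Patj, of the Crumbs complex, was alike at -0.16. F11r, the junctional adhesion molecule JAM-A, was alike at 197 and 218 CPM in pB3 and 241 and 272 in 687g. Cxadr, another adhesion protein of the membrane, had 96.4 and 92.0 CPM in pB3 and 66.9 and 44.6 in 687g (-0.76 ± 0.20, edgeR adjusted p = 0.0134), a call lost without pB3 replicate 1 or 2 or 687g replicate 2 (adjusted p = 0.109, 0.0753 and 0.0913). Pard6b, which joins Crb3 to the Par complex, was lower, with 26.6 and 25.8 CPM in pB3 and 5.36 and 5.71 in 687g (-2.24 ± 0.21, edgeR adjusted p = 2.56e-06).

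Desmosomes and hemidesmosomes, which anchor keratins, gave 7 lower, 1 higher and 4 alike of 12 tested from 15 members. That is 66.7% called, against 25.8% of all genes, of which 42.9% were alike. Ppl (periplakin) had 17.4 and 18.7 CPM in pB3 and 0.558 and 0.134 in 687g (-5.61 ± 0.41, edgeR adjusted p = 2.49e-07, -6.98 and -4.99 without 687g replicates 1 and 2). Dsc2 (desmocollin) had 5.24 and 6.22 CPM in pB3 and 0.782 and 0.806 in 687g (-2.84 ± 0.57, edgeR adjusted p = 0.00195), while the plaque protein Pkp2 was alike at -0.06. Ppl and Dsc2 were below 1 CPM in each 687g library. Itgb4, the integrin beta 4 subunit of hemidesmosomes, had 106 and 102 CPM in pB3 and 41.5 and 21.1 in 687g (-1.73 ± 0.28, edgeR adjusted p = 3.18e-04). Its partner Itga6 was alike, with 1053 and 1055 CPM in pB3 and 1061 and 711 in 687g. Pkp1, a desmosomal plaque protein, went the other way, with 43.8 and 46.0 CPM in pB3 and 228 and 108 in 687g (1.90 ± 0.29, edgeR adjusted p = 2.38e-04, 1.27 without 687g replicate 1).

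Keratins separated member by member: of 10 tested from 12, 4 were lower and 3 higher in 687g (1 higher without pB3 replicate 2). Krt19 had 79.5 and 86.6 CPM in pB3 and 0.837 and 0.672 in 687g (-6.76 ± 0.26, edgeR adjusted p = 1.78e-09). It was high in pB3 alone of the 4 lines, at 6.93 ± 0.170 CPM in pB2 and 2.60 ± 0.110 in Epcam hi (SD, n = 2). Krt20, a keratin of simple epithelia, was higher, with 0.672 and 0.713 CPM in pB3 and 4.30 and 7.66 in 687g (3.09 ± 0.45, edgeR adjusted p = 2.09e-04). Krt14, a basal keratin, had 15.0 and 14.4 CPM in pB3 and 0.502 and 0.403 in 687g (-4.99 ± 0.28, edgeR adjusted p = 2.46e-08). The luminal pair Krt8 and Krt18 was lower in 687g and still abundant there. Krt8 had 473 and 486 CPM in pB3 and 250.2 and 202 in 687g (-1.09 ± 0.19, edgeR adjusted p = 7.19e-04). Krt18 had 1881 and 2069 CPM in pB3 and 1160.3 and 1069 in 687g (-0.83 ± 0.18, edgeR adjusted p = 0.00347, lost without pB3 replicate 2, adjusted p = 0.0599). Krt7 had 734 and 788 CPM in pB3 and 1261 and 1016 in 687g (0.58 ± 0.20, edgeR adjusted p = 0.0469), a call lost without pB3 replicate 1 or 2 or 687g replicate 1 (adjusted p = 0.277, 0.181 and 0.173) and with total counts in place of TMM (0.0645). Krt7, Krt8 and Krt18 were thus present beside vimentin in both lines.

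Of 12 genes tested of epithelial traffic and the apical surface, from 14, 7 were lower and 2 higher in 687g (1 higher without pB3 replicate 2 or without 687g replicate 1). Ap1m2, the epithelial subunit of the basolateral sorting adaptor AP-1B, had 18.9 and 18.9 CPM in pB3 and 0.558 and 0.470 in 687g (-5.17 ± 0.28, edgeR adjusted p = 1.53e-08). Rab25, a recycling GTPase, had 13.6 and 13.9 CPM in pB3 and 0.502 and 0.269 in 687g (-5.09 ± 0.29, edgeR adjusted p = 2.43e-08). Erbb3, a receptor of neuregulins, had 4.71 and 4.60 CPM in pB3 and 0.335 and 0.202 in 687g (-4.05 ± 0.34, edgeR adjusted p = 1.04e-06). The groups do not overlap in any of these genes. Cdcp1, a surface protein, was alike at 0.02. Cd24a, a surface glycoprotein used to mark luminal mammary cells, was higher in 687g, with 196 and 191 CPM in pB3 and 495 and 399 in 687g (1.21 ± 0.19, edgeR adjusted p = 3.08e-04).

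**Figure D2:**
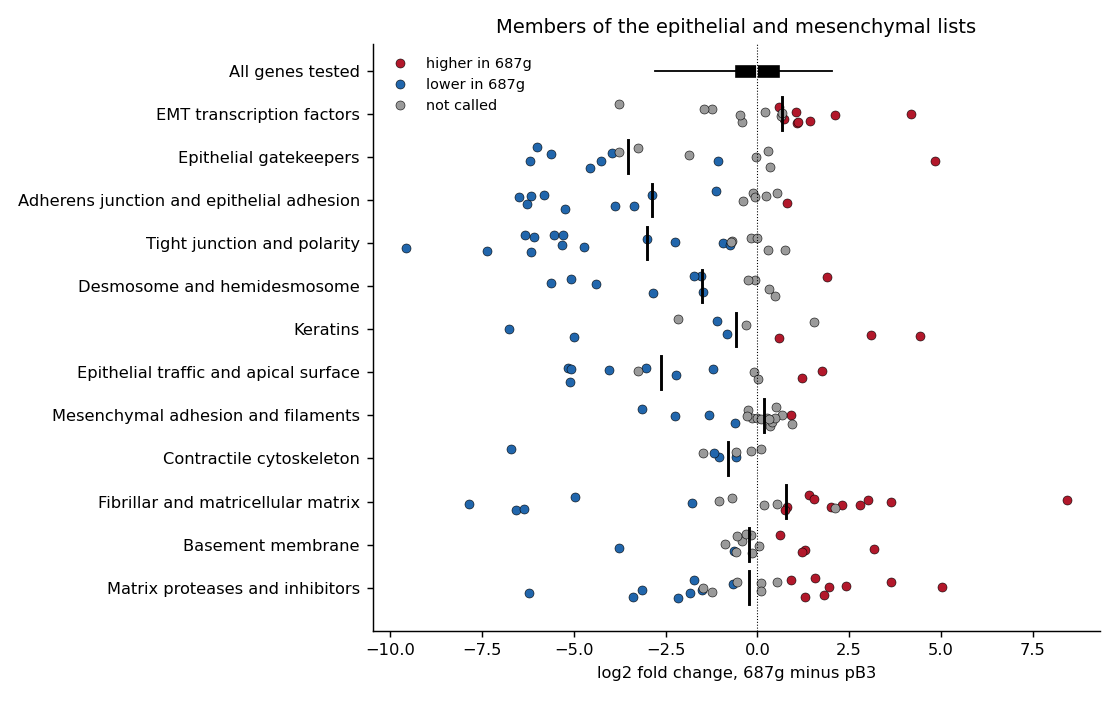
Log2 fold change (687g minus pB3) of each tested member of 12 lists; red points were called higher and blue points lower in 687g by edgeR, grey points were not called, and the vertical bar is the median of the list. The top line gives the median, quartiles and 5th to 95th percentile of all 15890 genes. Lists of epithelial adhesion, tight junction and traffic lie to the left (medians -2.86, -3.0 and -2.63, the first -1.12 without Cdh1 and Epcam), and mesenchymal adhesion lies around 0 (median 0.18, or 0.09 without Vim).

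The promoters of some of these genes are shown with the E-box that Snail and Zeb factors bind, CAGGTG on one strand and CACCTG on the other, in capitals. Each is the 250 bases before a RefSeq start site (GRCm38.p6), on the strand of the gene, 5′ to 3′. They belong to 3 genes low in 687g that hold the motif and 1 that is low and does not.
Epcam (chr17:87635729-87635978, + strand): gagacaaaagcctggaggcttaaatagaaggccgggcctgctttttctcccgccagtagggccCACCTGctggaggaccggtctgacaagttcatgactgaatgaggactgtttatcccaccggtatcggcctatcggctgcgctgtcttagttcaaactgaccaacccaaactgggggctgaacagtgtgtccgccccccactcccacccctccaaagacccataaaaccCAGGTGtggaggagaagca
Crb3 (chr17:57061951-57062200, + strand): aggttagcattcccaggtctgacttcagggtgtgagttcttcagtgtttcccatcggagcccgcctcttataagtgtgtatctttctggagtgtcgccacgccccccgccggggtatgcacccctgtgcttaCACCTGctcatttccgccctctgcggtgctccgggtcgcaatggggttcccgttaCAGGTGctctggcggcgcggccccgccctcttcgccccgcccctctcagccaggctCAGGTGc
Ap1m2 (chr9:21312334-21312583, - strand): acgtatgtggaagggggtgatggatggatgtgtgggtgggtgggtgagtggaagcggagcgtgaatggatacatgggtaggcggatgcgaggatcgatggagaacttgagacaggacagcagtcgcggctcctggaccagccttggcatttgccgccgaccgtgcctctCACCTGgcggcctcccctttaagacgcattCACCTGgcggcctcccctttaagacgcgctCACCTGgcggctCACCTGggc
Cldn3 (chr5:134985964-134986213, + strand): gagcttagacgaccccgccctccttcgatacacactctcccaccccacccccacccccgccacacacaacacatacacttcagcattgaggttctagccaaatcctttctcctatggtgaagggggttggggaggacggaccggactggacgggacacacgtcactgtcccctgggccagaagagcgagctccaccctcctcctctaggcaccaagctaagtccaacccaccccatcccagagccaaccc
The motif lay 187 and 19 bases before the start in Epcam, 118, 63 and 7 in Crb3 and 81, 51, 21 and 9 in Ap1m2. No match in the window of Cldn3 says only that these letters are not there. Over the tested genes with a promoter in the table, 1950 of 10565 (18.5%) held the motif. It was in 16 of the 27 matched epithelial genes that were lower in 687g (59.3%, of 47 in all). It was also in 11 of the 19 matched epithelial genes that were not lower (57.9%, of 36), so the share with the motif was much the same whether or not a gene was lower in 687g. Of 57 matched mesenchymal genes 8 held it (14.0%, of 83). A match is a description of the letters and not a bound site.

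Mesenchymal adhesion and filament genes were called about as often as genes in general. Besides Vim, 17 were tested from the list of 20, of which 4 were lower in 687g, 1 was higher and 9 were alike, with a median of 0.09. With Vim 27.8% of the list was called, against 25.8% of all genes, and the share alike over all genes was 42.9%. Axl, a receptor kinase of invasive cells, had 1108 and 1129 CPM in pB3 and 1088 and 781 in 687g, with an interval of -0.76 to 0.25. S100a4, a calcium-binding protein of motile cells, had 898 and 821 CPM in pB3 and 725 and 839 in 687g, an interval of -0.55 to 0.28. Wnt5a, a ligand of non-canonical Wnt signals, had 44.2 and 47.8 CPM in pB3 and 43.7 and 32.0 in 687g. Ncam1, a neural adhesion molecule, had 56.3 and 52.5 CPM in pB3 and 88.5 and 55.1 in 687g. Both are alike in the lines: the values of Ncam1 overlap, and those of Wnt5a lie next to each other. The integrin subunit Itgav and the actin bundler Fscn1 (fascin) were alike at 0.09 and 0, although Fscn1 was lower without 687g replicate 1 (-0.63, edgeR adjusted p = 0.0395). The 1 member called higher was Itgb3, a subunit of the vitronectin receptor, at 11.8 and 12.9 CPM in pB3 and 26.5 and 19.8 in 687g (0.91 ± 0.22, edgeR adjusted p = 0.00666). It was lost without any 1 of pB3 replicate 1, pB3 replicate 2 or 687g replicate 1 (adjusted p = 0.0950, 0.0528 and 0.0505), which left 0 called higher, and 3 were called higher without 687g replicate 2.

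Some mesenchymal genes were higher in the line that keeps E-cadherin. Cd44, the hyaluronan receptor, had 1348 and 1381 CPM in pB3 and 608 and 482 in 687g (-1.32 ± 0.19, edgeR adjusted p = 1.20e-04). Nes, the filament protein nestin, had 204 and 191 CPM in pB3 and 44.3 and 39.6 in 687g (-2.24 ± 0.19, edgeR adjusted p = 1.02e-06). Neither Cd44 nor Nes followed vimentin over the 4 lines. Epcam hi, low in vimentin, had 2024 ± 229 CPM of Cd44 and 233 ± 30.8 of Nes (SD, n = 2). In pB2 they stood at 50.5 ± 4.01 and 4.21 ± 0.720 CPM. Cavin1, a coat protein of caveolae, was low in both, with 1.88 and 3.04 CPM in pB3 and 0.279 and 0.269 in 687g (-3.13 ± 0.59, edgeR adjusted p = 0.00125), while its partner Cav1 was alike at 262 and 260.3 and 426 and 225 CPM. pB3 was above 687g in both libraries for Cd44, Nes and Cavin1.

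Markers of smooth muscle and myofibroblasts were near 0 in both lines. Of 14 contractile genes 5 were too low to test: Acta2 (smooth muscle actin) had 8 and 5 counts in pB3 and 2 and 2 in 687g, Tagln had 12 and 8 and 4 and 3, and Cnn1 had 1 and 0 and 0 and 0. Myl9 and Actg2 had at most 9 counts in any of the 4 libraries. These counts are too few to show a difference. Of the 9 tested, 4 were lower in 687g, 0 were higher and 3 were alike. Tpm2, beta-tropomyosin, had 33.7 and 38.7 CPM in pB3 and 0.223 and 0.470 in 687g (-6.72 ± 0.40, edgeR adjusted p = 3.39e-08). Cald1 (caldesmon) was alike at -0.17, and Tpm1, alpha-tropomyosin, at 2325 and 2464 CPM in pB3 and 2780.1 and 2365 in 687g. Csrp1, an actin-bundling LIM protein, had 468 and 486 CPM in pB3 and 217 and 204 in 687g (-1.18 ± 0.18, edgeR adjusted p = 2.26e-04).

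**Figure D3:**
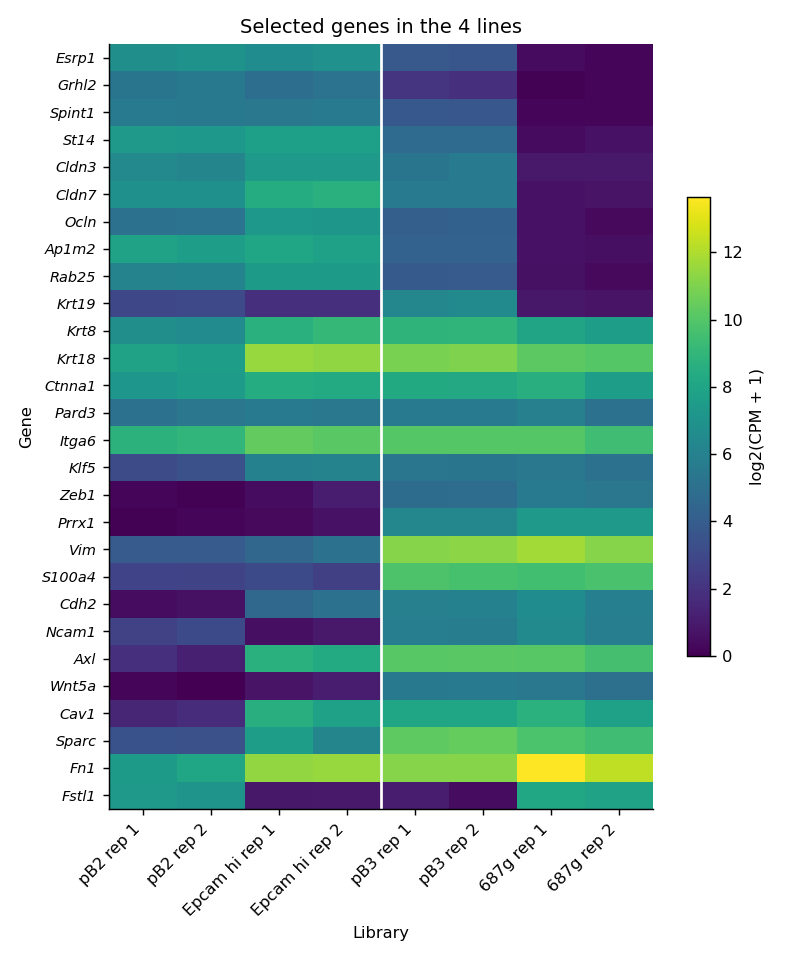
Expression of 28 genes as log2(CPM + 1) (colour) in each of the 8 libraries; the white line parts the lines of low vimentin from pB3 and 687g. Epithelial genes from Esrp1 to Rab25 step down from pB2 and Epcam hi to pB3 and to 687g, Ctnna1, Pard3, Itga6 and Klf5 keep their level in pB3 and 687g, and Fstl1 is high in pB2 and 687g.

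Matrix genes were divided, with 10 higher, 5 lower and 0 alike of 20 tested from 26 fibrillar and matricellular genes, and a median of 0.78. Without pB3 replicate 1, 6 were called higher, and without 687g replicate 1, 7. Fn1, fibronectin, had 2259.9 and 2259 CPM in pB3 and 12795 and 5216 in 687g (1.99 ± 0.33, edgeR adjusted p = 4.68e-04). Its 687g libraries were themselves far apart, and the log2 fold change was 1.21 without 687g replicate 1. Thbs1, the matricellular protein thrombospondin, had 425 and 409.6 CPM in pB3 and 4589 and 2151 in 687g (3.01 ± 0.31, edgeR adjusted p = 5.83e-06, 2.37 without 687g replicate 1). Fbln2 (fibulin) had 337 and 349 CPM in pB3 and 1247 and 739.7 in 687g (1.53 ± 0.22, edgeR adjusted p = 1.58e-04). All 3 were higher in both 687g libraries than in either pB3 library.

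Fstl1, a secreted follistatin-like protein on chromosome 16 from 37776873 to 37836514, differed most, with 1.08 and 0.389 CPM in pB3 and 277 and 234 in 687g (8.44 ± 0.33, edgeR adjusted p = 1.92e-09, 9.33 without pB3 replicate 1). It does not follow vimentin, since pB2 had 147 ± 20.1 CPM and Epcam hi 0.860 ± 0.0223 (SD, n = 2). Col6a1, a chain of type VI collagen, had 1.48 and 1.81 CPM in pB3 and 28.9 and 12.3 in 687g (3.64 ± 0.43, edgeR adjusted p = 2.31e-05, 2.90 without 687g replicate 1). Tnc, tenascin C, went the other way, with 986 and 939 CPM in pB3 and 346 and 212 in 687g (-1.79 ± 0.22, edgeR adjusted p = 3.37e-05). So did Loxl1, which crosslinks elastin, with 16.9 and 19.2 CPM in pB3 and 0.223 and 0.134 in 687g (-6.57 ± 0.45, edgeR adjusted p = 2.93e-07). Fbn1, the microfibril protein fibrillin, and Eln (elastin) each had 1 count in 687g, in replicate 1. Fbn1 was lower by 289-fold (counting interval 51.4 to 11453) and Eln by 39.0-fold (counting interval 6.56 to 1581). Their fitted log2 fold changes of -7.85 and -4.97 were -10.11 and -7.23 without 687g replicate 1 and -7.11 and -4.23 without 687g replicate 2. Loxl1, Fbn1 and Eln, all of elastic fibres, were thus near 0 in 687g.

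Among fibrillar collagens, Col5a1, a chain of type V, had 60.5 and 63.8 CPM in pB3 and 129 and 89.6 in 687g (0.81 ± 0.20, edgeR adjusted p = 0.00752). The call was lost without pB3 replicate 1 or 2 or 687g replicate 1 (adjusted p = 0.0974, 0.0651 and 0.0572). Other chains were scarce in both lines. Col1a1, a chain of type I collagen, had 0.403 and 0.777 CPM in pB3 and 1.56 and 1.61 in 687g (1.41 ± 0.41, edgeR adjusted p = 0.0219). Its call was lost without pB3 replicate 1 and without either 687g library (adjusted p = 0.251, 0.0533 and 0.0559). Its partner Col1a2 had 0 counts in all 4 libraries, Col3a1 had 1 and 0 in pB3 and 0 and 0 in 687g, and Col5a2 had 0 and 0 and 1 and 0. Lox, lysyl oxidase, had 3 and 2 counts in pB3 and 4 and 1 in 687g. Sparc, a matricellular protein of mesenchyme, was abundant in both and not called, with 1221 and 1359 CPM in pB3 and 893 and 713 in 687g (-0.68 ± 0.32, edgeR adjusted p = 0.142). Fibroblast markers, 8 of 16 tested, moved in both directions: Smoc2, Col15a1 and Gsn were higher and Fbln1 and Pdgfra lower in 687g, and the call of Gsn was lost without pB3 replicate 1 or 2 or 687g replicate 1 (edgeR adjusted p = 0.120, 0.0507 and 0.0884). Their summed level was 188 and 206 CPM in pB3 and 1137 and 947 in 687g, of which Smoc2 alone made 3.70 and 1.23 in pB3 and 787 and 705 in 687g (8.25 ± 0.41, edgeR adjusted p = 8.37e-09, 9.24 and 7.66 without pB3 replicates 1 and 2). The markers Dpt, Dcn, Clec3b, Mfap4, Abi3bp and Tcf21, 6 of the 16, had 0 counts in all 4 libraries. Leukocyte markers summed to 1.48 and 1.88 CPM in pB3 and 3.796 and 3.09 in 687g, with 6 of 12 at 0 in all 4. Endothelial markers summed to 10.96 and 12.3 CPM in pB3 and 4.19 and 2.89 in 687g, with Tie1 and Cldn5 at 0 in all 4. The part of such cells in these differences was not tested.

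Basement membrane genes held 4 higher, 2 lower and 4 alike of 14 tested from 16. That is 42.9% of them called, against 25.8% of all genes. Without pB3 replicate 1 or 687g replicate 1, 2 were called higher, and the number called lower was 4 without 687g replicate 1 and 1 without any of the other 3. Lama3, a laminin chain of epithelial basement membrane, had 18.9 and 16.5 CPM in pB3 and 1.84 and 0.672 in 687g (-3.76 ± 0.31, edgeR adjusted p = 8.47e-07, -4.69 without 687g replicate 1). Its partner Lamb3 was higher, with 24.2 and 21.96 CPM in pB3 and 59.9 and 54.6 in 687g (1.31 ± 0.18, edgeR adjusted p = 1.09e-04). Nid1, the linker nidogen, had 4.71 and 3.04 CPM in pB3 and 44.1 and 26.3 in 687g (3.18 ± 0.32, edgeR adjusted p = 5.76e-06). The type IV collagen chain Col4a1 was alike at 299 and 289 CPM in pB3 and 285 and 158 in 687g, and the laminin chains Lamc1 and Lamb2 were alike at 0.04 and -0.14.

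The 22 matrix proteases and their inhibitors, all tested, gave 8 higher, 8 lower and 3 alike. Mmp2, a gelatinase, had 0.269 and 0.259 CPM in pB3 and 11.3 and 6.25 in 687g (5.02 ± 0.52, edgeR adjusted p = 7.83e-06). Its activator Mmp14 had 108 and 108 CPM in pB3 and 319 and 209 in 687g (1.29 ± 0.21, edgeR adjusted p = 4.12e-04). Mmp9, the other gelatinase, was lower, with 7.60 and 8.23 CPM in pB3 and 0.391 and 1.14 in 687g (-3.40 ± 0.50, edgeR adjusted p = 1.68e-04, -2.78 and -4.31 without 687g replicates 1 and 2). Mmp3, a stromelysin, had 371 and 400.4 CPM in pB3 and 53.1 and 119 in 687g (-2.17 ± 0.30, edgeR adjusted p = 1.01e-04, -2.86 without 687g replicate 2). Klk6, a kallikrein-related protease, had 140.5 and 144 CPM in pB3 and 0.782 and 3.16 in 687g (-6.21 ± 0.57, edgeR adjusted p = 2.39e-06, -5.48 and -7.49 without 687g replicates 1 and 2). The gelatinases were thus higher in opposite lines of the pair, each at 11.3 CPM or less in every library of the pair. Mmp9 stood at 16.3 ± 8.88 CPM in Epcam hi and 0.0265 ± 0.0375 in pB2 (SD, n = 2). Timp2, an inhibitor of Mmp2, and Mmp10, a stromelysin, were alike at 0.10 and 0.10.

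The plasminogen activators were lower in 687g. Plau, urokinase, had 925 and 1011 CPM in pB3 and 258 and 325 in 687g (-1.73 ± 0.27, edgeR adjusted p = 2.88e-04). Plat, the tissue activator, had 45.4 and 53.6 CPM in pB3 and 16.2 and 11.5 in 687g (-1.83 ± 0.25, edgeR adjusted p = 7.98e-05). No values overlap between the lines in either gene.

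Many genes of TGF-beta and BMP signalling were higher in 687g. TGF-beta and BMP ligands act through receptor kinases and Smad proteins, and Id genes and the inhibitory Smads are among their targets. Of 26 members, all tested, 15 were higher in 687g, 3 lower and 5 alike, with a median of 0.75, beside 12.8% of all genes called higher. The calls of Acvr1b, Bmp1, Ltbp1 and Tgfbr1, at 0.74, 0.78, 0.76 and 0.73, did not hold without pB3 replicate 1. Among ligands, Tgfb1 had 34.2 and 36.3 CPM in pB3 and 136 and 81.0 in 687g (1.63 ± 0.23, edgeR adjusted p = 1.12e-04). Inhba, the activin A subunit, had 192 and 179.8 CPM in pB3 and 415 and 410.3 in 687g (1.15 ± 0.20, edgeR adjusted p = 5.43e-04). Inhbb, another activin subunit, was lower in 687g at -2.84 (edgeR adjusted p = 5.62e-05), and at -2.17 and -3.83 without 687g replicates 1 and 2. Among receptors, Tgfbr2, which binds the ligand, was lower, with 109 and 105 CPM in pB3 and 50.7 and 39.6 in 687g (-1.24 ± 0.19, edgeR adjusted p = 2.88e-04). The co-receptor Tgfbr3 had 1 count in 687g, in replicate 1, and was lower by 43.3-fold (counting interval 7.33 to 1752). Its fitted log2 fold change of -5.12 was -7.39 and -4.38 without 687g replicates 1 and 2. The signal carriers Smad3 and Smad4 were alike, at -0.16 and 0.16. Tgfb1 and Inhba were therefore higher, and Inhbb and the type II receptor lower, in the same line.

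Most targets on the list were higher. Id1, an inhibitor of basic helix-loop-helix factors, had 28.0 and 26.4 CPM in pB3 and 225 and 289.7 in 687g (3.24 ± 0.20, edgeR adjusted p = 4.29e-08). Id2 had 23.5 and 24.0 CPM in pB3 and 253 and 303 in 687g (3.55 ± 0.22, edgeR adjusted p = 4.29e-08). Id3 had 129 and 139.5 CPM in pB3 and 468 and 449.6 in 687g (1.77 ± 0.17, edgeR adjusted p = 3.49e-06). In all of these Id genes each 687g library was above each pB3 library, although pB2, which is low in vimentin, also had 212 ± 15.3 CPM of Id2 (SD, n = 2). Smad6, an inhibitory Smad, had 1.28 and 1.62 CPM in pB3 and 32.0 and 17.9 in 687g (4.10 ± 0.37, edgeR adjusted p = 1.70e-06). Smad7, the other one, had 75.1 and 73.1 CPM in pB3 and 256 and 273 in 687g (1.84 ± 0.20, edgeR adjusted p = 8.99e-06). Bambi, a decoy receptor and BMP target, was not called (-1.02 ± 0.40, edgeR adjusted p = 0.0785). Tgfbi, a secreted protein induced by TGF-beta, had 5.58 and 6.28 CPM in pB3 and 72.4 and 53.5 in 687g (3.41 ± 0.24, edgeR adjusted p = 2.08e-07).

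**Figure D4:**
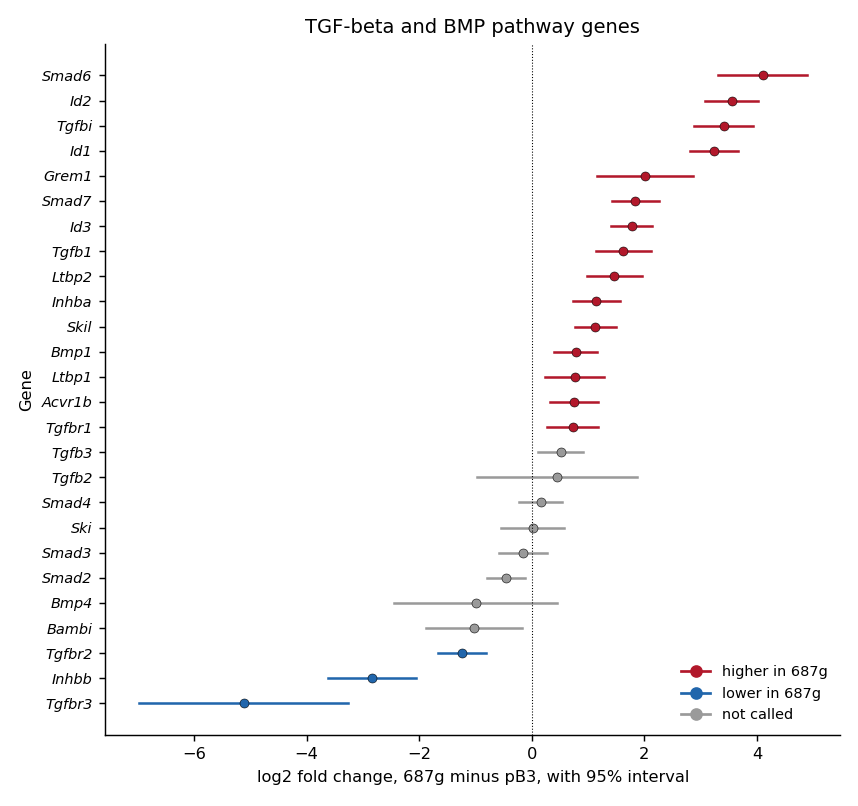
Log2 fold change (687g minus pB3) and its 95% interval for the 26 genes of the TGF-beta and BMP list; red was called higher and blue lower in 687g by edgeR, grey was not called. Smad6, Id2, Tgfbi and Id1 lie above 3, and Tgfbr2, Inhbb and Tgfbr3 are the members below 0 that were called.

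Growth factor genes were called higher in 5 and lower in 3 of 19 cases tested from 20, and 8 were alike. Over all genes 12.8% were higher, 12.9% lower and 42.9% alike. Ereg (epiregulin), a ligand of the EGF receptor, had 0.538 and 0.324 CPM in pB3 and 135 and 134 in 687g (8.27 ± 0.34, edgeR adjusted p = 2.28e-09). Areg (amphiregulin), another ligand of that receptor, had 318 and 307 CPM in pB3 and 643 and 875 in 687g (1.28 ± 0.27, edgeR adjusted p = 0.00272). Both ligands were higher in each 687g library. Ereg was also high in Epcam hi, at 95.6 ± 6.28 CPM, and near 0 in pB2, at 0.106 ± 0.150 (SD, n = 2). Fgf2, a fibroblast growth factor, had 29.9 and 27.7 CPM in pB3 and 199.6 and 155 in 687g (2.62 ± 0.20, edgeR adjusted p = 3.29e-07). The receptors Egfr and Fgfr1 were alike, at 0.26 and 0.19. Pdgfrb, a receptor of mesenchymal cells, had 1.28 and 1.55 CPM in pB3 and 13.5 and 8.13 in 687g (2.93 ± 0.42, edgeR adjusted p = 1.46e-04), and Pdgfra was lower, with 13.4 and 15.5 CPM in pB3 and 6.08 and 5.98 in 687g (-1.26 ± 0.23, edgeR adjusted p = 9.32e-04). Met, the scatter factor receptor, had 126 and 117 CPM in pB3 and 56.8 and 45.5 in 687g (-1.25 ± 0.20, edgeR adjusted p = 3.89e-04). Of 12 YAP and AP-1 genes tested, from 13, 1 was higher, 3 were lower (1 without pB3 replicate 2) and 6 were alike. The AP-1 subunit Junb had 126 and 143 CPM in pB3 and 463 and 329.7 in 687g (1.56 ± 0.23, edgeR adjusted p = 1.69e-04), and its relative Jun 60.6 and 61.7 and 15.6 and 13.9 (-2.05 ± 0.22, edgeR adjusted p = 8.99e-06). Fosl1 (Fra-1) was lower at -0.79 ± 0.19 (edgeR adjusted p = 0.00601), a call lost without pB3 replicate 2 (adjusted p = 0.0915), and the gene lies in a stretch of chromosome 19 whose genes had a median of -0.57. Yap1 and Wwtr1, which encode YAP and TAZ, were alike at 0.14 and 0.26.

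Factors that act on immune cells differed in both directions. Of 17 tested from 20, 7 were higher in 687g, 4 lower and 3 alike. Spp1, osteopontin, had 5119 and 5393 CPM in pB3 and 18663 and 17706 in 687g (1.79 ± 0.18, edgeR adjusted p = 5.83e-06). Nt5e, the ectoenzyme CD73 that makes adenosine, had 220.0 and 232 CPM in pB3 and 968 and 1346 in 687g (2.35 ± 0.20, edgeR adjusted p = 1.21e-06). Csf1, a macrophage growth factor, was not called, with 61.4 and 57.9 CPM in pB3 and 108 and 58.1 in 687g (0.48 ± 0.29, edgeR adjusted p = 0.263). Tnfrsf11b, osteoprotegerin, had 0.202 and 0.194 CPM in pB3 and 45.9 and 66.4 in 687g (8.09 ± 0.40, edgeR adjusted p = 7.69e-09). Entpd1 (CD39), which acts before Nt5e, was lower, with 6.92 and 10.1 CPM in pB3 and 0.949 and 0.403 in 687g (-3.61 ± 0.58, edgeR adjusted p = 3.45e-04, -4.37 without 687g replicate 1). The adenosine enzymes thus went in opposite directions. Csf2, which encodes GM-CSF, had 109 and 103 CPM in pB3 and 5.81 and 43.9 in 687g (-2.10 ± 0.55, edgeR adjusted p = 0.0120). Its 687g libraries disagreed, and the log2 fold change was -1.26 and -4.19 without 687g replicates 1 and 2. It was not called by DESeq2 (adjusted p = 0.117) or with the libraries of this pair alone (edgeR adjusted p = 0.0528).

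Of 16 chemokines and cytokines tested from 23, 3 were higher and 4 lower in 687g. That is 43.8% called, against 25.8% of all genes. Il6, an inflammatory cytokine, had 1.28 and 0.518 CPM in pB3 and 148 and 263 in 687g (7.83 ± 0.41, edgeR adjusted p = 1.31e-08, 8.61 without pB3 replicate 1). The chemokine Ccl9 had 1.34 and 0.453 CPM in pB3 and 7.48 and 12.8 in 687g (3.49 ± 0.39, edgeR adjusted p = 1.50e-05, 4.45 and 2.90 without pB3 replicates 1 and 2). Il6 and Ccl9 were near or below 1 CPM in pB3. Tslp, an epithelial cytokine, had 391 and 361 CPM in pB3 and 63.0 and 94.8 in 687g (-2.25 ± 0.25, edgeR adjusted p = 1.15e-05). Cxcl16, a transmembrane chemokine, had 23.1 and 23.3 CPM in pB3 and 1.62 and 1.88 in 687g (-3.73 ± 0.23, edgeR adjusted p = 4.67e-08). The chemokine Cxcl1 was called higher on 1 library only, with 7.66 and 6.54 CPM in pB3 and 6.98 and 99.8 in 687g (2.90 ± 0.76, edgeR adjusted p = 0.0111, -0.02 without 687g replicate 2, adjusted p = 0.981). MHC class I presentation had 8 members lower, 0 higher and 7 alike of 20 tested (1 higher without 687g replicate 2). The heavy chain gene H2-K1 had 131 and 134 CPM in pB3 and 75.1 and 66.2 in 687g (-0.91 ± 0.18, edgeR adjusted p = 0.00185), and B2m, the light chain, was alike at 303 and 309 and 296 and 306 CPM. Calr (calreticulin), a chaperone of class I molecules, had 1461 and 1556 CPM in pB3 and 802 and 703 in 687g and was lower (edgeR adjusted p = 7.71e-04). Nlrc5, which activates class I genes, had 4.84 and 5.05 CPM in pB3 and 1.12 and 1.34 in 687g (-2.01 ± 0.27, edgeR adjusted p = 8.08e-05). H2-Q4 had 4.91 and 5.44 CPM in pB3 and 0.502 and 0.739 in 687g (-3.06 ± 0.35, edgeR adjusted p = 1.77e-05). H2 genes are near copies of each other, so reads may be divided among them. Interferon-stimulated genes gave 4 higher and 2 lower of 21 tested from 24, and 0 higher without pB3 replicate 1, pB3 replicate 2 or 687g replicate 1. The ubiquitin-like Isg15 (1.06) and the signal carrier Stat2 (0.80) are among those 4, and Stat2 was not called without 687g replicate 2 either (adjusted p = 0.0566). Ifit2, an interferon-induced inhibitor of translation, had 8.67 and 10.2 CPM in pB3 and 0.391 and 0.0672 in 687g (-5.24 ± 0.50, edgeR adjusted p = 3.29e-06, -6.97 and -4.57 without 687g replicates 1 and 2). Bst2 (tetherin) had 37.8 and 36.6 CPM in pB3 and 8.43 and 5.91 in 687g (-2.37 ± 0.26, edgeR adjusted p = 1.27e-05). The share of interferon-stimulated genes called, 28.6%, was close to the 25.8% of all genes.

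Of the markers of mammary epithelium, the luminal keratins and Gata3 were present in both lines, and the milk genes Csn2 and Wap and the basal keratin Krt5 were at or near 0. Of 15 luminal genes tested from 18, 2 were higher, 1 was lower and 2 were alike. Gata3, a luminal master factor, was alike, with 37.4 and 37.2 CPM in pB3 and 59.5 and 36.9 in 687g. Foxa1, a partner of the oestrogen receptor, had 2.02 and 1.88 CPM in pB3 and 21.0 and 17.1 in 687g (3.29 ± 0.32, edgeR adjusted p = 4.43e-06). pB3 was the lowest of the 4 lines for Foxa1, which had 20.04 ± 6.24 CPM in pB2 and 24.4 ± 7.80 in Epcam hi (SD, n = 2). The level in 687g was thus near that of both lines of low vimentin. The milk protein gene Csn3 had 190.2 and 205 CPM in pB3 and 1.23 and 4.03 in 687g (-6.26 ± 0.42, edgeR adjusted p = 1.21e-07, -5.60 and -7.32 without 687g replicates 1 and 2). Csn2 and Wap, also milk protein genes, had 0 counts in all 4 libraries. Of 7 basal genes tested from 12, 2 were higher (1 when any 1 library of the pair was left out) and 2 lower, and Krt5 had at most 4 counts per library. Of the basal genes tested 57.1% were called, against 25.8% of all genes. Nrg1 (neuregulin) had 12.2 and 12.3 CPM in pB3 and 3.24 and 2.55 in 687g (-2.07 ± 0.26, edgeR adjusted p = 3.56e-05). Procr, a receptor of mammary stem cells, was called higher (0.68 ± 0.20, edgeR adjusted p = 0.0245), a call lost without any 1 library (adjusted p = 0.163 and 0.160 without pB3 replicates 1 and 2, 0.0501 and 0.0586 without 687g replicates 1 and 2). Jag2, a Notch ligand, had 1.75 and 1.36 CPM in pB3 and 15.9 and 12.4 in 687g (3.19 ± 0.28, edgeR adjusted p = 1.77e-06). It was higher still in Epcam hi, at 32.2 ± 6.51 CPM, and stood at 0.551 ± 0.0460 in pB2 (SD, n = 2).

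Hox genes, which record the position of a cell along the body, were low or at 0 in 687g. Of 13 tested from 34, 9 were lower in 687g, 0 were higher and 1 was alike. They passed the filter largely through pB3 or the other lines, so the direction of this count was partly set by the filter. The other 21 had at most 15 counts in any library of the pair, and the 15 are those of Hoxc13, with 0 and 0 counts in pB3 and 15 and 7 in 687g. Hoxa10 had 15.1 and 17.3 CPM in pB3 and 0.279 and 0.0672 in 687g (-6.42 ± 0.39, edgeR adjusted p = 4.23e-08, -7.75 and -5.82 without 687g replicates 1 and 2). It had 30.2 ± 2.86 CPM in pB2 and 0.0625 ± 0.0110 in Epcam hi (SD, n = 2), so both lines of the reporter mice were below both MMTV-PyMT lines. Hoxa9 had 1.82 and 2.20 CPM in pB3 and 0 counts in 687g, at least 21.96-fold lower by the same floor. Hoxa7 had 2 counts in 687g, both in replicate 1, and was lower by 91.4-fold (counting interval 24.9 to 761). Its fitted log2 fold change of -6.36 was -9.46 and -5.55 without 687g replicates 1 and 2. Summed over the 34 genes, Hox messages stood at 41.2 and 43.3 CPM in pB3 and at 4.91 and 5.11 in 687g.

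Where pB3 lies between the lines was read from mean CPM, without a test. Its mean lay between that of 687g and those of both lines of low vimentin for 3502 of 15890 genes. Among the lists this held for 9 of 15 gatekeepers, 10 of 19 tight junction genes and 9 of 12 traffic genes, with 687g lowest in each case. It held for 8 of 16 EMT transcription factors and 6 of 17 mesenchymal adhesion genes besides Vim, with 687g highest in each. These counts do not ask whether pB3 and 687g were called different, and Hmga2 and Cdh2, both alike, are among them. The 1 mesenchymal adhesion gene called higher, Itgb3, is not, since pB2 had 31.0 CPM of it and pB3 12.4. None of those 6 was therefore called higher in 687g than in pB3. This place of pB3 also held for 7 of 15 adherens junction genes, Cdh1 and Epcam among them, and 5 of 12 desmosome genes, 2 of those 5 with 687g highest. It held for 8 of 22 proteases and inhibitors and 10 of 26 TGF-beta and BMP genes, in both directions. For matrix genes it held for 3 of 20, all with 687g highest, for contractile genes for 1 of 9 and for basement membrane genes for 1 of 14. Keratins and Hox genes had 0 of 10 and 0 of 13. In these lists pB3 was thus intermediate for about as many regulators and junction genes as not, and for few matrix, contractile, keratin and Hox genes.

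In each direction, the 6 called genes with the largest folds, at 10 CPM or more in the higher line, lay outside these lists. Higher in 687g were Abcc3, a transporter of organic anions, from 0.269 and 0.0648 CPM in pB3 to 196 and 161, and 4930502E18Rik, from 0.0672 and 0.194 to 77.2 and 110.2. Fam19a5, a secreted chemokine-like protein, was higher by 2763-fold (counting interval 496 to 109185) from 1 count in pB3. Tnfaip8l3 was higher, from 2 counts, by 1272-fold (counting interval 352 to 10510.1). Lrch2, also from 2 counts, was higher by 859-fold (counting interval 237 to 7095), and the annexin Anxa10, from 3, by 431-fold (counting interval 147 to 2094). Palmd, with 1 count in 687g, was lower by 1704-fold (counting interval 305 to 67352), and Zfp275, with 2 counts there, by 474-fold (counting interval 131 to 3919). Tenm4, a teneurin, had 55.7 and 52.8 CPM in pB3 and 0.279 and 0 in 687g, and Nefl, the light neurofilament, 178 and 202 and 0.558 and 0.672 (-8.26 ± 0.27, edgeR adjusted p = 1.63e-09). Prl3d2, a prolactin family gene, had 33.5 and 28.6 CPM in pB3 and 0.167 and 0.0672 in 687g, and Crabp1, which binds retinoic acid, 26.6 and 27.6 and 0.167 and 0.0672. Fitted log2 fold changes of such genes hang on single counts. Those of Abcc3, Fam19a5, Tnfaip8l3, Lrch2 and Anxa10 were 10.01, 11.14, 10.15, 9.57 and 8.68. They became 11.27, 13.55, 13.41, 12.83 and 7.76 without pB3 replicate 1 and 9.34, 10.27, 9.21, 8.63 and 12.46 without pB3 replicate 2. Those of Palmd (-10.41) and Tenm4 (-8.41) became -12.67 and -12.74 without 687g replicate 1 and -9.67 and -7.56 without 687g replicate 2. Those of 4930502E18Rik (9.39), Prl3d2 (-7.91) and Crabp1 (-7.71) moved to 10.29 without pB3 replicate 2 and to -8.68 and -8.49 without 687g replicate 1.

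At the INK4 locus on chromosome 4, 687g was above pB3. Cdkn2a, which encodes the p16 and p19 tumour suppressors, had 0.269 and 0.130 CPM in pB3 and 40.3 and 30.1 in 687g (7.42 ± 0.38, edgeR adjusted p = 9.83e-09). Its neighbour Cdkn2b, the p15 inhibitor, had 0.605 and 1.04 CPM in pB3 and 65.9 and 51.9 in 687g (6.15 ± 0.39, edgeR adjusted p = 7.35e-08). pB3 was the lowest of the 4 lines for Cdkn2a, which had 36.7 ± 6.06 CPM in pB2 and 11.4 ± 1.44 in Epcam hi (SD, n = 2). Mtap, a gene of methionine salvage beside them, had 2810 and 2977 counts in pB3 and 12749 and 9782 in 687g (1.84 ± 0.17, edgeR adjusted p = 2.13e-06). Both libraries of 687g were above both of pB3 for all of these genes, and Mtap was chosen after its values were seen. Of the 14 members of the list 6 were higher, 1 was lower (3 without 687g replicate 1) and 6 were alike, among them Trp53 (-0.43), Cdkn1a (0.09) and Mdm2 (0.16).

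Calls were spread unevenly over the chromosomes, a pattern looked at after the values were seen. On the X chromosome 174 of 584 genes tested were higher in 687g (29.8%) and 63 lower (10.8%), with a median log2 fold change of 0.27. On the autosomes 12.2% were higher and 13.0% lower, with a median of -0.02. Xist, the RNA that silences one X chromosome, had 707 and 609 CPM in pB3 and 34.8 and 56.3 in 687g (-3.85 ± 0.47, edgeR adjusted p = 3.03e-05). The genes of the lists that lie in X stretches with a raised median include Msn, Col4a5 and Pgk1, with log2 fold changes of 0.52, 1.20 and 2.74 where the medians of the genes around them were 0.85, 0.66 and 0.78. Col4a5 was not called without pB3 replicate 1 or 687g replicate 1 (adjusted p = 0.0626 and 0.0973). Eda2r, also there, was lower in 687g (-3.26 ± 0.21, edgeR adjusted p = 7.81e-08). Chromosome 19 had 139 of 494 genes lower and 29 higher, with a median of -0.38, and chromosome 4 had 195 of 1002 lower and 93 higher, with a median of -0.24. Fosl1, lower by 0.79 on the log2 scale, lies in a stretch of chromosome 19 from 4929717 to 5802672 whose 43 genes had a median of -0.57, and Isg15, at 1.06, in one of chromosome 4 from 155869546 to 156255657 whose 21 genes had a median of -0.74. The number of copies of these chromosomes was not tested.

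**Figure D5:**
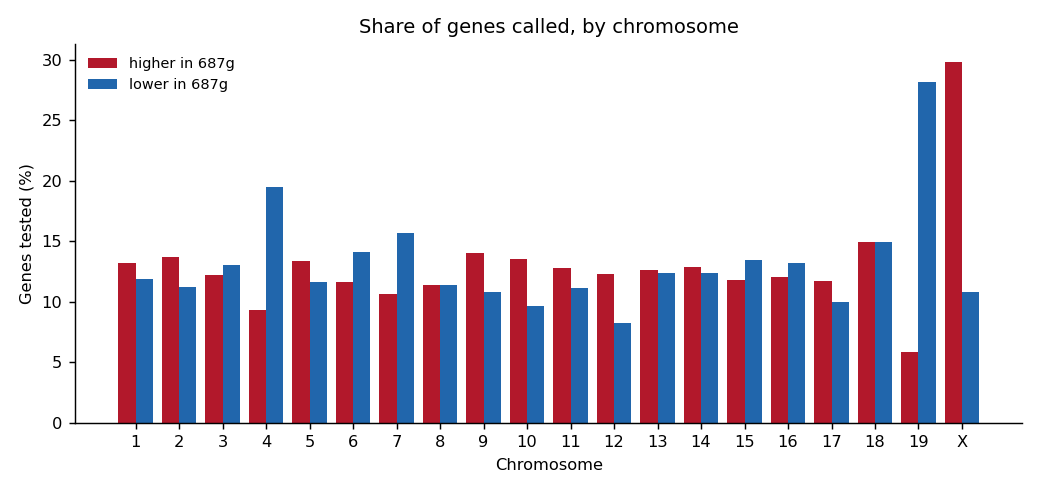
Share of tested genes called higher (red) and lower (blue) in 687g by edgeR, in percent, for each autosome and the X chromosome. The X chromosome has the highest share called higher (29.8%), and chromosomes 19 and 4 have the highest shares called lower.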

How the data were processed

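Per the labels' protocols, RNA was extracted with an RNeasy kit and libraries were made with a KAPA mRNA HyperPrep kit. Per the submitters' processing notes and the series' design text, the authors used STAR 2.6.1a to align single-end reads to GRCm38 (mm10) with Ensembl annotation 91, and counted them with featureCounts in reverse-stranded mode. The deposited files hold raw read counts for 53379 genes, 1 file per library. How reads of several genes were treated is not given in the sources used here. Symbols and positions come from GENCODE M21 of the same build, which named 53274 genes, and promoters and microRNAs from RefSeq.

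The test was edgeR 4.0.16 in R 4.3.3: filterByExpr by line (15890 genes), TMM, and a quasi-likelihood fit in which each line has 1 coefficient and all 8 libraries enter (4 residual degrees of freedom, common dispersion 0.0318), with Benjamini-Hochberg adjustment over all genes, two-sided. Standard errors come from the F statistic. CPM use TMM-scaled totals. Against 0 counts, folds are bounds at 3 counts over the line. With 1 to 3 counts, folds are ratios of count sums with exact 95% intervals, and both cover counting error only. The method was tested on simulated data. Replicates of every line differed beyond sampling noise (chi-square per degree of freedom of 12.3 in pB3 and 55.1 in 687g).

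The lines compared, the 30 lists (533 entries) and the tests were chosen with earlier results of these data known, so lists are described by counts and medians without a list test. Named genes are a panel of 14, the 6 called genes with the largest fold each way among those that reach 10 CPM in the higher line, the 2 called members with the largest fold each way, at 5 CPM or more, of each list that holds no markers of other cells, and the 2 alike members nearest 0, at 10 CPM or more, of each epithelial, mesenchymal and transcription factor list. Others were chosen after their values were seen. Alternatives were other scalings, filters, DESeq2 1.42.0, limma-voom (limma 3.58.1), a test against a 2-fold change, a replicate block and leaving out each library.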

Additional observations from a re-analysis of the deposited data

How the results depend on the processing

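No gene called in the full fit was called in the opposite direction under any alternative. Counts of genes higher and lower in 687g (2039 and 2054) stayed within 1.5 times except in a test against a 2-fold change (glmTreat), which left 759 and 875, and without single libraries, which gave 1136 to 1926 and 1266 to 1879. Total counts in place of TMM gave 1843 and 2210, DESeq2 2001 and 1916. Of 243 called genes of the lists and panel, 57 lost the call without at least 1 library of the pair. Fscn1 (fascin), at a difference of 0 in the full fit, was lower without 687g replicate 1 (-0.63, adjusted p = 0.0395) and at 0.44 without 687g replicate 2. The replicate numbers did not pair the libraries (correlation of deviations -0.034 between pB3 and 687g, -0.21 to 0.235 over all pairs of lines), and a fit with the replicate number as a block called 2003 and 2017.

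Without single libraries, members called higher ranged from 4 to 8 for EMT transcription factors, 0 to 3 for adherens junction, 0 to 3 for mesenchymal adhesion, 6 to 10 for fibrillar matrix, 2 to 3 for basement membrane, 1 to 3 for keratins, 1 to 2 for epithelial traffic, 0 to 3 for interferon-stimulated genes, 0 to 1 for MHC class I, and 1 in every case for basal genes. Those called lower ranged from 1 to 4 for basement membrane, 7 to 15 for the cell cycle, 1 to 3 for YAP and AP-1, and 1 to 3 for the p53 list. Members called lower became 1 for EMT transcription factors (this pair alone, and limma-voom), 5 for YAP and AP-1 (this pair alone), 5 for cholesterol synthesis (total counts), 4 for basement membrane (no filter), 5 for TGF-beta and 2 for immune factors (DESeq2). Mesenchymal adhesion had 2 higher with no filter.

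Against a 2-fold change, members higher numbered 2 for EMT transcription factors, 0 for adherens junction, 0 for epithelial traffic, 0 for mesenchymal adhesion, 6 for fibrillar matrix, 1 for basement membrane, 5 for proteases, 8 for TGF-beta, 3 for growth factors, 1 for luminal, 1 for basal, 0 for interferon-stimulated, 4 for immune factors, 2 for the p53 list and 5 for hypoxia. Members lower numbered 2 for keratins, 2 for mesenchymal adhesion, 1 for contractile genes, 1 for basement membrane, 0 for growth factors, 1 for YAP and AP-1, 4 for MHC class I, 2 for chemokines, 0 for the cell cycle and 0 for cholesterol synthesis. Genes under about 1 CPM are limited by depth: 3 counts are 0.168 to 0.202 CPM in a library of the pair.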

Other observations

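Genes of the cell cycle were lower in 687g in 13 of 23 cases tested, 0 were higher and 9 were alike, with a median of -0.70 (8 and 7 lower without pB3 replicates 1 and 2). Of the cell cycle genes 56.5% were called, against 25.8% of all genes. Mcm5, of the replication helicase, had 154 and 178 CPM in pB3 and 80.7 and 56.6 in 687g (-1.27 ± 0.20, edgeR adjusted p = 3.34e-04). Ccne1 (cyclin E) had 33.3 and 36.1 CPM in pB3 and 12.0 and 14.7 in 687g (-1.38 ± 0.20, edgeR adjusted p = 1.33e-04). Tyms and Rrm2, which make nucleotides, were alike at 0.16 and 0.08. Ccnd2 (cyclin D2) had 104 and 101 CPM in pB3 and 48.2 and 34.9 in 687g (-1.30 ± 0.21, edgeR adjusted p = 3.90e-04). In cholesterol synthesis 14 of 17 genes were alike, 3 lower and 0 higher. The share called was 17.6%, against 25.8% of all genes, of which 42.9% were alike. The reductase Dhcr7, which acts late in sterol synthesis, was lower at -1.25 ± 0.19 (edgeR adjusted p = 2.00e-04).

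Hypoxia and glycolysis genes gave 8 higher, 2 lower and 6 alike of 17, and those that differed most did so in opposite directions. Bnip3, a mitophagy receptor, had 19.7 and 19.1 CPM in pB3 and 154 and 245 in 687g (3.36 ± 0.36, edgeR adjusted p = 9.34e-06). Pdk1, which holds pyruvate out of mitochondria, had 39.1 and 44.3 CPM in pB3 and 215 and 227 in 687g (2.41 ± 0.19, edgeR adjusted p = 4.84e-07). Car9, a carbonic anhydrase induced by hypoxia, was lower, with 10.1 and 10.8 CPM in pB3 and 1.67 and 1.61 in 687g (-2.66 ± 0.24, edgeR adjusted p = 2.06e-06). Ndrg1 was lower too, with 25.01 and 27.0 CPM in pB3 and 4.41 and 2.49 in 687g (-2.90 ± 0.27, edgeR adjusted p = 2.63e-06). Beside these, the 13 mitochondrial genes tested had a median of 1.14, with 4 higher and 0 lower, and their part in these differences was not tested.

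Of 8 adipocyte markers, the 3 that could be tested were higher in 687g, beside 12.8% of all genes. Adipoq, Plin1 and Lep had 0 counts in all 4 libraries. The 3 tested were at about 1 CPM or less in pB3 and passed the filter through 687g or the other lines. The direction of this count was therefore partly set by the filter. Pparg, the nuclear receptor of fat cell formation, had 0.538 and 1.04 CPM in pB3 and 24.1 and 23.7 in 687g (4.91 ± 0.36, edgeR adjusted p = 2.58e-07). Fabp4, a fatty acid carrier, had 0.336 and 0.194 CPM in pB3 and 9.66 and 16.3 in 687g (5.58 ± 0.52, edgeR adjusted p = 2.58e-06). Plin4 was higher by 83.2-fold (counting interval 14.6 to 3321) from 1 count in pB3, and its fitted log2 fold change of 6.05 was 8.46 and 5.18 without pB3 replicates 1 and 2.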
